A study of Mus musculus with 9 samples.

Results

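The comparison described here set mature medullary thymic epithelial cells (mTEChi) against their less mature counterparts (mTEClo), each sequenced once from the same wild-type C57BL/6 (B6) mice. Its members were the RefSeq transcript entries whose 2 deposited values, 1 for each library, summed to 10 or more: 29212 of the 30794 entries in the table met that minimum, and they stood for 21858 genes once each gene symbol was kept as its entry with the highest mean. Values are normalised counts, that is reads falling within the exons of an entry, scaled between the 2 libraries by the study. A fold is the ratio of the 2 normalised counts, and the range in parentheses after it is an exact 95% interval that covers the counting of reads alone. With 1 library on each side, no p-value can be attached to a fold of this pair.

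Medullary thymic epithelial cells show developing T cells the proteins of other organs, so that T cells reactive to self are deleted or diverted into the regulatory lineage. They mature from cells with little MHC class II on their surface into cells with much of it. Maturation is driven by TNF-family signals, RANK ligand and CD40 ligand among them, that act through NF-kB. The mature cells transcribe Aire, the regulator that raises the expression of many tissue-restricted genes. The MHC class II low fraction is a mixture: it holds cells that have not yet expressed Aire, chemokine-producing cells of the medulla, and cells that have passed through the Aire stage, such as keratinocyte-like and tuft cells.

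The cells of the pair came from 1 pool of 4 thymi of mice that were 4 weeks old. They were sorted as CD45-, Ly51- cells with high (mTEChi) or low (mTEClo) surface I-A/E, the mouse MHC class II molecules; no epithelial surface marker is named in that gate. Polyadenylated RNA was sequenced with a non-directional kit, so reads of a gene and of an antisense neighbour cannot be told apart. A pair of further WT libraries of mTEChi from other experiments showed how far mTEChi libraries vary: one is the WT partner of Aire-/- mTEChi, and the other is the 0 h reference, harvested without exposure, of a series treated with actinomycin D, an inhibitor of transcription. The labels give both the same kind of kit as the pair, while the study's methods give the actinomycin D series single-end reads and another kit without naming the 0 h library apart, so a difference of preparation between that library and the others cannot be told apart from one between experiments. The Aire-/- partner is called the library labelled Aire-KO throughout, because Aire itself was higher in it than in its WT partner (WT over labelled Aire-KO ratio 0.334 (0.33 to 0.339)). All exons of Aire are summed in that value, and whether the knockout allele still makes a transcript is not resolved by it.

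The mTEChi library held 195444567 counted reads and the mTEClo library 74161592, and the 3 other libraries held between 91610143 and 143001134. The smallest non-zero step was therefore finer in mTEChi than in mTEClo. Among the entries that met the minimum, 46 had no read in mTEClo and 86 had none in mTEChi. Over all 30794 entries the order was the reverse, with 965 at 0 in mTEClo and 938 in mTEChi. The entry NR_046233, the ribosomal RNA precursor, took 0.666% of counted reads in mTEChi and 5.35% in mTEClo. Lars2, encoding a mitochondrial leucyl-tRNA synthetase, stood at 1028, 853 and 29.2 CPM in the 3 mTEChi libraries and 16009 CPM in mTEClo, on a scale of reads per 1000000 counted reads of the library (CPM); it is in no list below. Scaling by library totals in place of the deposited factors moved all log2 folds by 0.071, and scaling by TMM factors moved them by 0.011.

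Of the 21858 genes, 2693 (12.3%) were at least 3-fold higher in mTEChi and 3064 (14.0%) at least 3-fold lower. Another 13018 genes (59.6%) differed by less than 2-fold, and the median fold over all genes was 1.003. Counted over entries, 3444 (11.8%) were at least 3-fold higher and 3727 (12.8%) at least 3-fold lower. Differences of 10-fold or more were seen for 554 genes toward mTEChi and 732 toward mTEClo. When the whole counting interval had to lie beyond 3-fold, 1965 genes stayed higher and 1852 stayed lower. These shares are the background for each gene list below. A count of list members is a description, because no replicate pair exists.

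**Figure D1:**
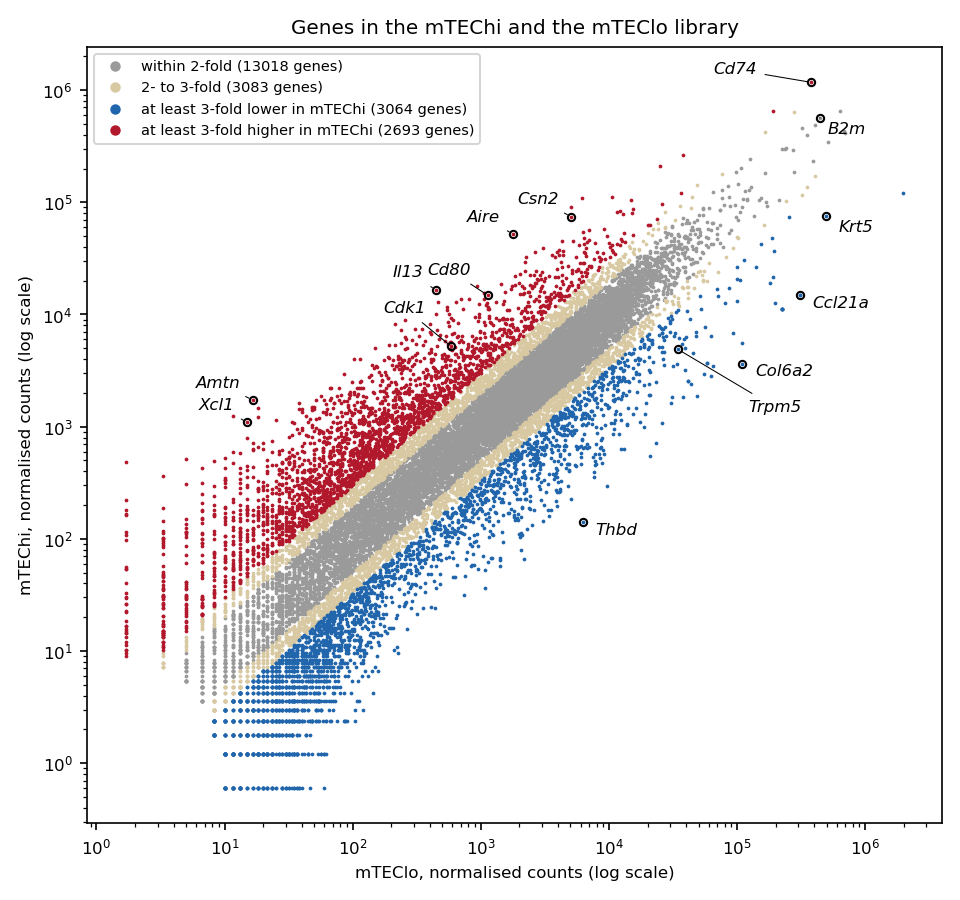
Normalised counts of each gene in mTEClo (horizontal axis) and mTEChi (vertical axis), both on log scales, with 1 point per gene and colours for the fold class; genes with no read in 1 library cannot be drawn on these axes. The cloud is centred on equality, with 2693 genes at least 3-fold higher and 3064 at least 3-fold lower in mTEChi, and the lower class is dense among genes of few counts.

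The genes that define mature mTEC stood on the mTEChi side. Aire had 52112 in mTEChi and 1777 in mTEClo, so it was 29.3-fold (27.6 to 31.2) higher. Its entry NM_009646, which all files share, was at 444, 259 and 804 CPM in the 3 mTEChi libraries and 14.4 CPM in mTEClo. Each mTEChi library was thus far above mTEClo, although the 3 differed among themselves. The Aire gene lies on mouse chromosome 10 (mm9), and the 130 bases around its annotated start, 100 before it and 30 from it onward, are printed here because they carry a motif that recurs among the genes higher in mTEChi. The letters TATAAA, the core of the TATA box, are in capitals and begin 29 bases before the start.
Aire (chr10:77506326-77506455, minus strand): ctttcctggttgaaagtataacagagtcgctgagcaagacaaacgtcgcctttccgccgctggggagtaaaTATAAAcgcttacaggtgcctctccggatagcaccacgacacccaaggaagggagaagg

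MHC class II genes were higher in mTEChi; the cells were sorted on that protein, so these folds describe the gate. In the list of MHC class II presentation genes, 10 of 16 measured members were at least 3-fold higher and 1 at least 3-fold lower (median fold 3.54). H2-Eb2, a class II beta chain gene, had the largest fold of the list, with 109309 in mTEChi and 6155 in mTEClo, or 17.8-fold (17.2 to 18.4) higher. H2-Ab1, the I-A beta chain, was at 637867 in mTEChi and 275923 in mTEClo, only 2.31-fold (2.3 to 2.32) higher. The one member at least 3-fold lower was Ctsl, the cathepsin that trims the invariant chain in cortical epithelium, with 20090.3 in mTEChi and 106030.5 in mTEClo, which is 5.28-fold (5.21 to 5.35) lower. Cathepsin S, the enzyme of that step in other antigen-presenting cells, stood on the opposite side: the entry NM_021281 of Ctss was at 182, 177 and 202 CPM in the 3 mTEChi libraries and 32.3 CPM in mTEClo. Ctss was named after its value was seen. No member of the MHC class I list reached 3-fold in either direction: 18 of its 20 measured members were within 2-fold, with a median fold of 1.34. B2m, the class I light chain, was at 566272 in mTEChi and 440549 in mTEClo. H2-Q7 and its neighbours are near-identical copies, so the split of reads among them is uncertain.

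Among the costimulatory and coinhibitory surface genes, 7 of 18 measured members were at least 3-fold higher and 1 at least 3-fold lower (median fold 1.94). Cd86, a ligand of CD28 and CTLA-4, had 3506 in mTEChi and 223 in mTEClo, or 15.7-fold (13.2 to 18.8) higher. Cd80, its relative, had 14788 in mTEChi and 1135 in mTEClo and was 13-fold (12.1 to 14.1) higher; it was named after its value was seen. Icosl, the ligand of ICOS, was at 48140.3 in mTEChi and 6438 in mTEClo, which is 7.48-fold (7.24 to 7.72) higher. These 3 ligands were each far apart between the libraries, whereas Cd274, which encodes PD-L1, differed by 1.48-fold (1.44 to 1.52). Lgals9, encoding the lectin galectin-9, was the member at least 3-fold lower, with 6464 in mTEChi and 32274 in mTEClo, or 4.99-fold (4.88 to 5.11) lower. Icam1, an adhesion receptor for T cells, lay between the classes with 111448 in mTEChi and 44501 in mTEClo.

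In the RANK, CD40 and NF-kB pathway list, most members leaned toward mTEChi by modest ratios. Here 2 of 25 measured members were at least 3-fold higher and 1 at least 3-fold lower (median fold 2.17), and 14 of the 25 fell between 2- and 3-fold. The receptor gene Cd40 had 24476 in mTEChi and 2707 in mTEClo and was 9.04-fold (8.6 to 9.51) higher. Tnfrsf11a, which encodes RANK, had 16292 in mTEChi and 6991 in mTEClo, or 2.33-fold (2.26 to 2.41) higher. Tnfrsf11b, encoding osteoprotegerin, the soluble decoy for RANK ligand, had 26848 in mTEChi and 4802 in mTEClo and was 5.59-fold (5.38 to 5.81) higher. The inhibitors and subunits of NF-kB followed at smaller ratios. Nfkbia was at 143703 in mTEChi and 48581 in mTEClo, 2.96-fold (2.92 to 2.99) higher, and Nfkb2, the precursor of the non-canonical subunit, at 42696 in mTEChi and 19592 in mTEClo, 2.18-fold (2.14 to 2.22) higher. Traf5, an adaptor of TNF receptors, was the member at least 3-fold lower, with 654 in mTEChi and 2909 in mTEClo.

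Regulators of mTEC identity were split. In that list, 7 of 28 measured members were at least 3-fold higher and 1 at least 3-fold lower (median fold 0.933). Fezf2, a zinc finger factor that drives tissue genes in mTEC apart from Aire, had 52936 in mTEChi and 12986 in mTEClo, or 4.08-fold (3.98 to 4.17) higher. Irf8, an interferon regulatory factor best known in myeloid cells, had 42013 in mTEChi and 10502 in mTEClo, or 4.0-fold (3.9 to 4.11) higher. Trp63, the p63 factor of stratified epithelia, was the member at least 3-fold lower, with 7911 in mTEChi and 24534 in mTEClo, or 3.1-fold (3.03 to 3.17) lower. Spib, a factor of the Ets family, differed by only 1.5-fold (1.48 to 1.52). Of the proteins described as partners of Aire, 21 of 27 measured members were within 2-fold, and 3, Aire included, were at least 3-fold higher. Sirt1, a deacetylase, was one of these, with 45988 in mTEChi and 6972 in mTEClo, or 6.6-fold (6.39 to 6.81) higher.

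The 2 libraries differed strongly in chemokines. In the thymic chemokine list, 10 of 25 measured members were at least 3-fold higher and 4 at least 3-fold lower (median fold 1.94). Xcl1, which attracts XCR1-bearing dendritic cells, was among the 15 largest folds of the whole comparison, with 1092 in mTEChi and 15 in mTEClo, or 73-fold (38.3 to 159.8) higher. Ccl25, a ligand of CCR9, had 34174 in mTEChi and 3611 in mTEClo, or 9.46-fold (9.07 to 9.88) higher. Ccl22, a ligand of CCR4, had 21342 in mTEChi and 3165 in mTEClo and was 6.74-fold (6.44 to 7.07) higher, yet across libraries it stood at 182, 326 and 25 CPM in the 3 mTEChi libraries and 25.6 CPM in mTEClo, so mTEClo lay inside the mTEChi range. On the other side, Ccl21a, a ligand of CCR7 that guides thymocytes into the medulla, had 14821 in mTEChi and 307180.5 in mTEClo, or 20.7-fold (20.4 to 21) lower. Its copies Ccl21b, Ccl21c and Ccl21d are near-identical in sequence and shared 1 pair of values, 11199 in mTEChi and 222323 in mTEClo, so reads of these genes cannot be assigned to a single copy. Ccl11, the eotaxin gene, was lower by the largest ratio of its family, with 2801 in mTEChi and 62574 in mTEClo, or 22.3-fold (21.7 to 23).

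Cytokine genes were prominent among the large folds. Of the interleukin family, 18 of 32 measured members were at least 3-fold higher and 4 at least 3-fold lower (median fold 5.77). Il13, a type 2 cytokine, had 16605 in mTEChi and 446 in mTEClo, or 37.2-fold (33 to 42.1) higher. Il12a, which encodes the p35 subunit shared by IL-12 and IL-35, had 5902 in mTEChi and 288 in mTEClo and was 20.5-fold (17.6 to 24) higher. Il23a, encoding the p19 subunit of IL-23, had 22158 in mTEChi and 3396 in mTEClo, or 6.52-fold (6.24 to 6.83) higher. In each of these 3 genes mTEClo lay below all 3 mTEChi libraries: Il13 was at 141, 110.1 and 61 CPM in the 3 mTEChi libraries and 3.61 CPM in mTEClo. On the mTEClo side were 4 interleukins. Il6 had 183 in mTEChi and 2413 in mTEClo, or 13.2-fold (11.6 to 14.9) lower, and Il25, the cytokine of tuft cells, 760.2 in mTEChi and 6152 in mTEClo, or 8.09-fold (7.59 to 8.63) lower. Il7, the survival factor of early thymocytes, lay between the classes with 5106 in mTEChi and 13314 in mTEClo. In the wider list of cytokines and TNF family ligands, 14 of 33 measured members were at least 3-fold higher and 6 at least 3-fold lower (median fold 1.68). Tnf had 9650 in mTEChi and 1159.8 in mTEClo, or 8.32-fold (7.71 to 8.99) higher, while Tnfsf10, encoding TRAIL, had 2665 in mTEChi and 9041 in mTEClo, or 3.39-fold (3.26 to 3.53) lower.

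**Figure D2:**
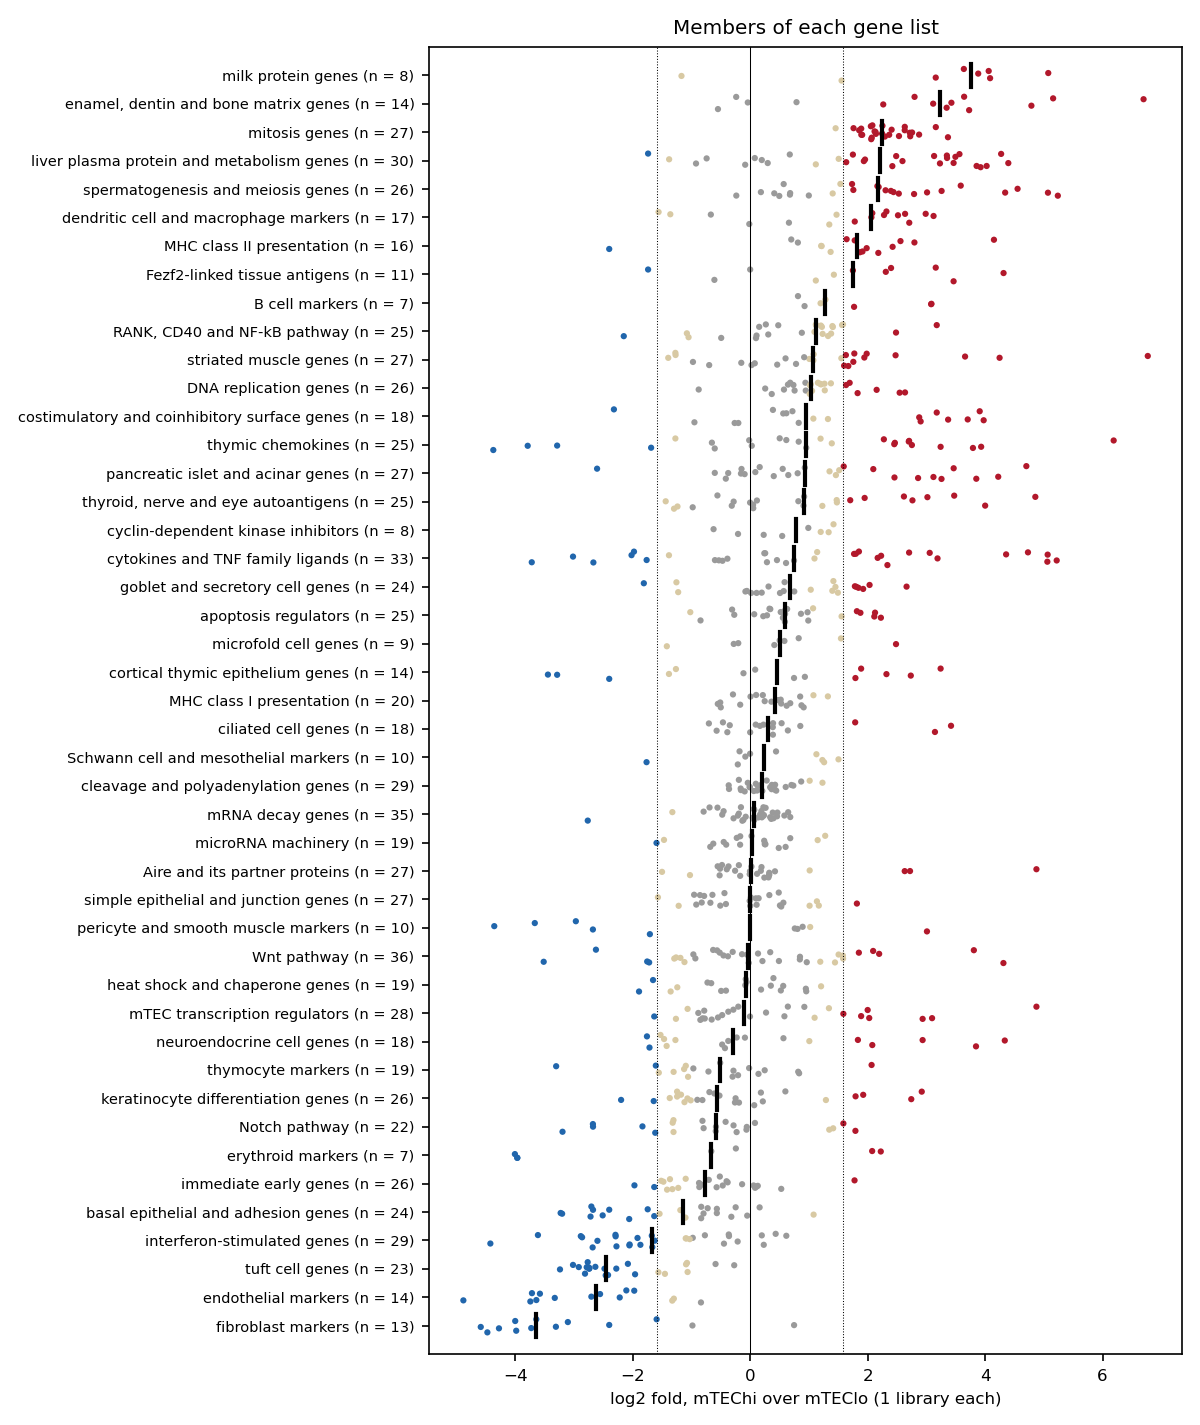
Log2 fold of mTEChi over mTEClo (horizontal axis) for each measured member of 45 gene lists (rows), with a black bar at the median of the list and dotted lines at 3-fold. Milk, enamel and mitosis genes lie at the top with medians of 13.6, 9.41 and 4.74-fold, and tuft, endothelial and fibroblast genes at the bottom with medians of 0.182, 0.162 and 0.0801.

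Genes shared by many epithelia differed little, while several sets of genes of epithelial subtypes differed strongly. Epcam, the common surface marker of thymic epithelium, was at 49200.3 in mTEChi and 49490 in mTEClo; it was named after its value was seen. Of the simple epithelial and junction genes, 21 of 27 were within 2-fold and the median fold was 1.0. Krt8, a keratin of simple epithelia, was at 182492 in mTEChi and 165134 in mTEClo, and Cdh1, encoding E-cadherin, at 51720.1 in mTEChi and 70058 in mTEClo. Basal genes lay toward mTEClo: among basal epithelial and adhesion genes, 0 of 24 measured members were at least 3-fold higher and 10 at least 3-fold lower (median fold 0.452). Krt5, the keratin of basal cells, had 76039 in mTEChi and 495299 in mTEClo, or 6.51-fold (6.47 to 6.56) lower. Krt14, its partner, had 36932 in mTEChi and 194849.9 in mTEClo, or 5.28-fold (5.22 to 5.33) lower. Igfbp5, an IGF-binding protein, had 19173 in mTEChi and 179506 in mTEClo, or 9.36-fold (9.25 to 9.48) lower. Laminins, the basement membrane proteins, followed the same side, with 6 of 11 at least 3-fold lower and none at least 3-fold higher. Lamb3 had 4037 in mTEChi and 26551 in mTEClo, or 6.58-fold (6.39 to 6.77) lower.

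Tuft cell genes were lower as a block. Of 23 measured members, 16 were at least 3-fold lower and 0 at least 3-fold higher, with a median fold of 0.182. Trpm5, the ion channel of tuft cell signalling, had 4901 in mTEChi and 34414 in mTEClo, or 7.02-fold (6.84 to 7.21) lower. Avil, encoding advillin, had 6986 in mTEChi and 47535 in mTEClo, or 6.8-fold (6.66 to 6.95) lower. Alox5ap, needed for leukotriene synthesis, had 1297 in mTEChi and 12232 in mTEClo, or 9.43-fold (8.99 to 9.9) lower. The mTEChi libraries themselves were far apart on these genes, with Trpm5 at 41.7, 163 and 154 CPM in the 3 mTEChi libraries and 279 CPM in mTEClo, and the summed list stood at 432, 1390 and 996 CPM in the 3 mTEChi libraries and 2235 CPM in mTEClo. In all 3 libraries the sum was below mTEClo, and with their median in place of the pair's own library the median fold was 0.505. Several members of the taste receptor family work in tuft cells, and 34 of its 36 measured members were at least 3-fold lower. Its median fold was 0.0978 in the pair and 0.369 with the 3 libraries. That was not particular to taste receptors, since 633 of 898 olfactory and 203 of 283 vomeronasal receptors were at least 3-fold lower too, as described below. Tas2r105, a bitter receptor, had 57.7 in mTEChi and 840.3 in mTEClo.

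Other specialised epithelial lists held members in both directions. Among keratinocyte differentiation genes, 4 of 26 measured members were at least 3-fold higher and 2 at least 3-fold lower (median fold 0.676). That direction turned when the median of the 3 mTEChi libraries replaced the mTEChi library of the pair, with a median fold of 1.24. For 17 of the 26 members mTEClo lay inside the range of the 3 libraries, for 8 below all 3 and for 1 above all 3. Over all genes placed in the 3 libraries, mTEClo lay below all 3 for 36.4% and above all 3 for 28.3%. Krt10, a keratin of the suprabasal epidermis, had 22171 in mTEChi and 33819.8 in mTEClo, while Klk5, a protease of the shedding epidermis, had 2937 in mTEChi and 388 in mTEClo, or 7.58-fold (6.64 to 8.68) higher. For neuroendocrine cells, 5 of 18 measured members were at least 3-fold higher and 2 at least 3-fold lower (median fold 0.812). Calca, encoding calcitonin and CGRP, had 11048 in mTEChi and 548 in mTEClo, or 20.2-fold (18.1 to 22.6) higher, whereas Chgb, a granin of secretory granules, had 2029 in mTEChi and 6859 in mTEClo, or 3.38-fold (3.23 to 3.54) lower. Ciliated cell genes were within 2-fold in 15 of 18 cases. Microfold cell genes were within 2-fold in 6 of 9, and Gp2, the uptake receptor of these cells, lay between the classes with 15478 in mTEChi and 41379.5 in mTEClo. For goblet and secretory genes, 6 of 24 measured members were at least 3-fold higher and 1 at least 3-fold lower (median fold 1.59). With the median of the 3 mTEChi libraries the median fold was 3.26, and mTEClo lay below all 3 for 20 of the 24 members and above all 3 for 0. Fcgbp, a mucus protein, was level within the pair, with 646697 in mTEChi and 639776 in mTEClo. Cortical epithelium genes did not move as 1 group: Psmb11 and Prss16, made mainly by cortical cells, were at 922 in mTEChi and 869 in mTEClo and at 3969 in mTEChi and 4295 in mTEClo, both named after their values were seen. Tbata had 44711 in mTEChi and 6718 in mTEClo, or 6.66-fold (6.45 to 6.87) higher, and Foxn1, the master factor of thymic epithelium, 10792 in mTEChi and 2914 in mTEClo, or 3.7-fold (3.53 to 3.89) higher.

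Notch and Wnt genes were found on both sides. In the Notch list, 2 of 22 measured members were at least 3-fold higher and 5 at least 3-fold lower (median fold 0.667). Jag2, a Notch ligand, had 1752 in mTEChi and 11197 in mTEClo, or 6.39-fold (6.12 to 6.68) lower, and Hey2, a Notch target, 337 in mTEChi and 3088 in mTEClo, or 9.16-fold (8.33 to 10.1) lower. Dll4, the ligand that commits progenitors to the T lineage, went the other way with 5198 in mTEChi and 1501 in mTEClo, or 3.46-fold (3.23 to 3.71) higher. In the Wnt list, 5 of 36 measured members were at least 3-fold higher and 4 at least 3-fold lower (median fold 0.973), shares close to those over all genes. Dkk1, a secreted Wnt inhibitor, had 1619 in mTEChi and 81.5 in mTEClo, or 19.9-fold (15 to 26.9) higher. Among the Wnt ligands, Wnt8b had 1446 in mTEChi and 39.9 in mTEClo and Wnt10b 7952 in mTEChi and 567 in mTEClo; these were 36.2-fold (24.3 to 56.6) and 14-fold (12.6 to 15.7) higher. Fzd2, a Wnt receptor, had 534 in mTEChi and 6102 in mTEClo, or 11.4-fold (10.6 to 12.3) lower, and the frizzled family had no member at least 3-fold higher.

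Several lists of genes typical of other organs were weighted toward mTEChi. Among milk protein genes, 6 of 8 measured members were at least 3-fold higher and 0 at least 3-fold lower (median fold 13.6). Csn2, encoding beta-casein, had 74652 in mTEChi and 5060.3 in mTEClo and stood at 636, 493 and 1038 CPM in the 3 mTEChi libraries and 41 CPM in mTEClo. Wap, the whey acidic protein, had 666 in mTEChi and 39.9 in mTEClo, or 16.7-fold (11.2 to 26.2) higher. Glycam1 was the exception in direction, with 166 in mTEChi and 374 in mTEClo. For enamel, dentin and bone matrix, 10 of 14 measured members were at least 3-fold higher and 0 at least 3-fold lower (median fold 9.41). Amtn, encoding amelotin of the enamel surface, had 1727 in mTEChi and 16.6 in mTEClo, or 104-fold (56.4 to 217) higher, and Klk4, the enamel protease, 4039.6 in mTEChi and 113 in mTEClo, or 35.7-fold (28.1 to 46) higher. Spp1, encoding osteopontin, had 12826 in mTEChi and 464 in mTEClo, or 27.6-fold (24.6 to 31.2) higher.

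Liver genes followed, with 19 of 30 measured members 3-fold or more toward mTEChi and a median fold of 4.62. Alb, the albumin gene, had 1960.3 in mTEChi and 93.2 in mTEClo, or 21-fold (16.2 to 27.9) higher. Apob, the protein of very low density lipoprotein, had 6774 in mTEChi and 614 in mTEClo, or 11-fold (9.94 to 12.3) higher. Crp, encoding C-reactive protein, was the one member at least 3-fold lower, with 2228 in mTEChi and 7433 in mTEClo, or 3.34-fold (3.19 to 3.48) lower. The apolipoproteins as a family held both directions: Apoa4 had 35213 in mTEChi and 6448 in mTEClo, or 5.46-fold (5.29 to 5.64) higher, whereas Apoe had 12535 in mTEChi and 197458 in mTEClo, or 15.8-fold (15.5 to 16) lower. Apoe was below mTEClo in each mTEChi library, at 107, 207 and 195 CPM in the 3 mTEChi libraries and 1600 CPM in mTEClo.

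Pancreatic genes of both the acinar and the islet compartment were among the higher ones. In the list, 10 of 27 measured members were at least 3-fold higher and 1 at least 3-fold lower (median fold 1.91). Ctrb1, encoding chymotrypsinogen, had 4176 in mTEChi and 289.5 in mTEClo, or 14.4-fold (12.4 to 16.9) higher, and Ppy, the pancreatic polypeptide gene, 1732 in mTEChi and 66.6 in mTEClo, or 26-fold (19.1 to 36.5) higher. Iapp, the amylin gene, differed little, with 4845 in mTEChi and 5402 in mTEClo, and Gcg, the glucagon gene, had 2104 in mTEChi and 2727 in mTEClo. For thyroid, nerve and eye autoantigens, 8 of 25 measured members were at least 3-fold higher and 0 at least 3-fold lower (median fold 1.88). Tg, encoding thyroglobulin, had 2206 in mTEChi and 359 in mTEClo, or 6.14-fold (5.35 to 7.07) higher, and Aipl1 of photoreceptors 1734 in mTEChi and 59.9 in mTEClo, or 28.9-fold (20.9 to 41.4) higher. Mag, a myelin protein, lay between the classes with 682 in mTEChi and 1674 in mTEClo.

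Muscle and germ cell genes were also weighted toward mTEChi. Among striated muscle genes, 11 of 27 measured members were at least 3-fold higher and 0 at least 3-fold lower (median fold 2.11). Actn3, a sarcomeric actinin, had 43169 in mTEChi and 7761 in mTEClo, or 5.56-fold (5.4 to 5.73) higher, and Myh3, the embryonic myosin, 3064 in mTEChi and 161 in mTEClo, or 19-fold (15.5 to 23.4) higher. Acta1, the skeletal actin, was on the other side of equality with 1545 in mTEChi and 2506 in mTEClo. Among spermatogenesis and meiosis genes, 16 of 26 measured members were at least 3-fold higher and 0 at least 3-fold lower (median fold 4.52). Tex14, needed for germ cell bridges, had 2192 in mTEChi and 108 in mTEClo, or 20.3-fold (15.9 to 26.3) higher. Stra8, the meiosis inducer, had 1378 in mTEChi and 115 in mTEClo, or 12-fold (9.45 to 15.5) higher. Of 11 genes tied to Fezf2 in earlier work, 6 were at least 3-fold higher, with Calb1, the calcium-binding calbindin, at 2052 in mTEChi and 103 in mTEClo.

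The cell cycle lists leaned toward mTEChi, and more so in mitosis than in DNA replication. Of 27 mitosis genes, 26 reached 3-fold or more toward mTEChi, with a median fold of 4.74, and the remaining one, Kif20a, had 5473 in mTEChi and 1997 in mTEClo. Of 26 replication genes, 6 reached 3-fold or more toward mTEChi, with a median fold of 2.06. Cdk1, the mitotic kinase, had 5223 in mTEChi and 584 in mTEClo, or 8.94-fold (8.04 to 9.98) higher. Its values across libraries were 44.5, 28.8 and 53.1 CPM in the 3 mTEChi libraries and 4.73 CPM in mTEClo. Cdc25c, the phosphatase that activates it, had 1819.7 in mTEChi and 176 in mTEClo, or 10.3-fold (8.5 to 12.6) higher. Pcna, the sliding clamp of replication, had 10229 in mTEChi and 4927 in mTEClo, or 2.08-fold (2.0 to 2.16) higher. Of 62 histone genes, 57 stayed within 2-fold and 3 were at least 3-fold lower. That family was not made of replication histones alone, since it held the variant histone genes H2az1 and H2az2, and only polyadenylated RNA was sequenced. Cyclin-dependent kinase inhibitors stayed within 2-fold in 5 of 8 cases, with none at 3-fold or more.

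Start windows of the mitosis genes shared sequence elements. In the windows from 250 bases before to 50 after the annotated start, read from mm9, CCAAT was present on either strand in 88.9% of the 27 genes and TTTGAA, the core of the cell cycle homology region, in 66.7%, against 38.2% and 15.4% of all 20577 windows. Stretches of 130 bases (100 before the start and 30 from it onward) of 3 of these genes, chosen after the matches were seen because they hold both motifs close together, carry them in capitals; ATTGG is CCAAT read on the opposite strand.
Cdk1 (chr10:68815657-68815786, minus strand): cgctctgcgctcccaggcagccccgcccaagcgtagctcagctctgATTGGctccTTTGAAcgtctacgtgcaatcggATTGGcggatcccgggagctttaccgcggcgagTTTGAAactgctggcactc
Ccnb2 (chr9:70269332-70269461, minus strand): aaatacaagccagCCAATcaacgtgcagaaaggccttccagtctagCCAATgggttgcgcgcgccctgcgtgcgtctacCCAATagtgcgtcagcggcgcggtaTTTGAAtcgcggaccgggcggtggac
Cdc20 (chr4:118109928-118110057, minus strand): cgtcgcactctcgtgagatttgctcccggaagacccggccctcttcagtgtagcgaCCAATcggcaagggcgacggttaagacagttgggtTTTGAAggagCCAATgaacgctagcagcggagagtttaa

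Interferon-stimulated genes lay toward mTEClo, whereas few genes of the stress lists reached 3-fold. Among immediate early genes, 1 of 26 measured members were at least 3-fold higher and 2 at least 3-fold lower (median fold 0.588), neither share above that over all genes. Atf3, a stress-induced factor, had 47945 in mTEChi and 187853 in mTEClo, or 3.92-fold (3.88 to 3.95) lower, and Fos had 115642 in mTEChi and 321831 in mTEClo, or 2.78-fold (2.77 to 2.8) lower. Hspb1, a small heat shock protein gene, had 30655 in mTEChi and 113775 in mTEClo, or 3.71-fold (3.67 to 3.75) lower, whereas Hspa5, the chaperone of the endoplasmic reticulum, had 244937 in mTEChi and 126373 in mTEClo. Of the heat shock and chaperone genes, 14 of 19 were within 2-fold and 2 were at least 3-fold lower (median fold 0.949). Among interferon-stimulated genes, 0 of 29 measured members were at least 3-fold higher and 16 at least 3-fold lower (median fold 0.315). Oas2, an antiviral synthetase, had 358 in mTEChi and 7671 in mTEClo, or 21.4-fold (19.7 to 23.4) lower, and Irf7 had 6436 in mTEChi and 47486 in mTEClo, or 7.38-fold (7.22 to 7.54) lower. Cxcl10 was not among them, with 76827 in mTEChi and 50144 in mTEClo. The summed interferon list stood at 2524, 2363 and 2645 CPM in the 3 mTEChi libraries and 4609 CPM in mTEClo. Of the apoptosis regulators, 5 of 25 measured members were at least 3-fold higher and 0 at least 3-fold lower (median fold 1.51), with Bcl2a1d, an NF-kB-driven survival gene with near-identical copies, at 17929.9 in mTEChi and 3834 in mTEClo.

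Few genes of RNA control reached 3-fold. Clp1, a factor of 3′ end cleavage, had 3358 in mTEChi and 2208 in mTEClo, or 1.52-fold (1.43 to 1.62) higher, and stood at 28.6, 27.1 and 56.9 CPM in the 3 mTEChi libraries and 17.9 CPM in mTEClo. No cleavage and polyadenylation gene reached 3-fold, and 27 of 29 were within 2-fold. Pabpc1, the cytoplasmic poly(A)-binding protein, had 51293 in mTEChi and 21854 in mTEClo, or 2.35-fold (2.3 to 2.39) higher. In the microRNA machinery list, 15 of 19 were within 2-fold, and Mov10, a helicase, was the member at least 3-fold lower with 1791 in mTEChi and 5408 in mTEClo. In the mRNA decay list, 33 of 35 were within 2-fold. Zfp36l1, which targets AU-rich transcripts, was the exception with 5492 in mTEChi and 37329 in mTEClo, or 6.8-fold (6.63 to 6.97) lower. Families of constant function were as even: 81 of 82 cytosolic ribosomal protein genes, 33 of 35 proteasome subunits and all 21 heterogeneous nuclear ribonucleoprotein genes were within 2-fold.

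Markers of stromal and blood cells moved with the comparison. Of 13 fibroblast markers, 11 were at least 3-fold lower and none higher, with a median fold of 0.0801. Dcn, encoding decorin, had 4563 in mTEChi and 45172 in mTEClo, or 9.9-fold (9.65 to 10.2) lower. The summed fibroblast list was 282, 252 and 442 CPM in the 3 mTEChi libraries and 1358 CPM in mTEClo. Of 14 endothelial markers, 11 were at least 3-fold lower. Emcn, encoding endomucin, had 36.7 in mTEChi and 1082 in mTEClo, or 29.5-fold (22.7 to 39) lower. The summed endothelial list was 103, 125 and 129.5 CPM in the 3 mTEChi libraries and 528 CPM in mTEClo. No marker of either list was at 0 in either library. These sums move with the collagens and laminins: Col6a2, a chain of collagen VI, had 3637 in mTEChi and 109789.6 in mTEClo, or 30.2-fold (29.4 to 31) lower, and Thbd, encoding the endothelial receptor thrombomodulin, 141 in mTEChi and 6287 in mTEClo, or 44.5-fold (39 to 51) lower. The part of fibroblasts and endothelial cells in the genes lower in mTEChi was not tested. Fewer cells of a type and less RNA in each of them cannot be told apart in a bulk library.

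Of 7 erythroid markers 3 were at least 3-fold lower and 2 at least 3-fold higher, and Hba-a1 and Hba-a2, near-identical alpha-globin copies with 1 shared pair of values, had 3706 in mTEChi and 57868 in mTEClo. Of 10 pericyte and smooth muscle markers, 5 were at least 3-fold lower, and Tagln, an actin-binding protein, had 1846 in mTEChi and 37832 in mTEClo, or 20.5-fold (19.7 to 21.3) lower. Schwann cell and mesothelial markers were within 2-fold in 5 of 10 cases, with 1 at least 3-fold lower. Markers of dendritic cells and macrophages moved the other way. Of 17 measured members, 10 reached 3-fold or more toward mTEChi, with a median fold of 4.18. Lyz2, encoding a lysozyme, had 54458 in mTEChi and 6253 in mTEClo, or 8.71-fold (8.43 to 9.0) higher, and Mrc1, the mannose receptor, 4877 in mTEChi and 784 in mTEClo, or 6.22-fold (5.67 to 6.84) higher. The summed list was 985, 1387 and 510.1 CPM in the 3 mTEChi libraries and 194 CPM in mTEClo. Of these sums Lyz1, another lysozyme gene, gave 355, 647 and 143 CPM and 98.2 CPM. Its WT over labelled Aire-KO ratio was 5.44 (5.35 to 5.54). Of the 17 members, 11 were at least 3-fold higher in WT than in the labelled Aire-KO, against 22.8% of all genes. The sum is therefore not a measure of dendritic cell and macrophage RNA alone. Of 7 B cell markers 3 were at least 3-fold higher, and the list summed to 48.4, 48.5 and 37.1 CPM in the 3 mTEChi libraries and 19.1 CPM in mTEClo. None of these markers was at 0, and Itgax, the CD11c gene, was at 267 in mTEChi and 269.6 in mTEClo (named after its value was seen). MHC class II and costimulatory genes are shared with these cells, and their part in the folds of those genes was not tested. Thymocyte markers were within 2-fold in 11 of 19 cases, and Ptprc, encoding CD45, was at 6.71, 6.72 and 14.2 CPM in the 3 mTEChi libraries and 13.3 CPM in mTEClo.

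Gene families outside the lists gave further structure to the higher class. Of the major urinary and odorant-binding protein family, 24 of 29 members reached 3-fold or more toward mTEChi, with a median fold of 8.61. Obp2a, an odorant-binding protein, had 1406 in mTEChi and 48.3 in mTEClo, or 29.1-fold (20.2 to 43.6) higher. Of the beta-defensins, the antimicrobial peptides of epithelia, 20 of 30 were at least 3-fold higher. Defb19 had 1243 in mTEChi and 11.6 in mTEClo, or 107-fold (51.7 to 266) higher, while the abundant Defb1 did not differ, with 2053 in mTEChi and 2050.1 in mTEClo. BPI fold proteins of airway and saliva were at least 3-fold higher in 11 of 14 cases, and Bpifb6 had 494 in mTEChi and 8.3 in mTEClo, or 59.4-fold (25.3 to 183) higher. Kallikreins were so in 14 of 27 cases with none at least 3-fold lower. Keratins were so in 27 of 54, with 3 at least 3-fold lower. Krt13 of mucosal epithelium had 3916 in mTEChi and 175 in mTEClo, or 22.4-fold (18.5 to 27.4) higher. The summed keratin family went the other way, at 6945, 10302 and 10445 CPM in the 3 mTEChi libraries and 13289 CPM in mTEClo. Members of the Mup, Klk1b and Bpifb groups are close copies, so counts may be shared among them.

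Other families showed both directions or few differences. Cathepsins were at least 3-fold higher in 9 of 22 cases. Ctsj, a placental cathepsin, had 529 in mTEChi and 10 in mTEClo, or 53-fold (24.3 to 145) higher, and Ctsh 28595 in mTEChi and 6267 in mTEClo, or 4.56-fold (4.41 to 4.72) higher. Among Hox genes, 10 of 38 were at least 3-fold higher and 7 at least 3-fold lower. Hoxb13 had 867 in mTEChi and 88.2 in mTEClo, or 9.83-fold (7.47 to 13.2) higher, while Hoxa3, a gene of thymus formation, had 166 in mTEChi and 736 in mTEClo, or 4.42-fold (3.79 to 5.15) lower. Of 97 potassium channel genes, 15 were at least 3-fold higher and 16 at least 3-fold lower, close to the shares over all genes. Zinc finger genes with Zfp symbols were within 2-fold in 299 of 377 cases. Serpinb9b, a clade B serpin, had 1629 in mTEChi and 38.3 in mTEClo, or 42.5-fold (28.3 to 67.2) higher, and Serpinh1, the collagen chaperone, 12619 in mTEChi and 79879 in mTEClo, or 6.33-fold (6.23 to 6.43) lower.

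The class lower in mTEChi was concentrated in genes of very few reads. Among the decile of genes with the lowest mean, 53.8% were at least 3-fold lower and 7.18% at least 3-fold higher, with a median fold of 0.301. In the third to the fifth decile, from a mean of 79.69 to one of 969.3 normalised counts, between 19.9% and 23.1% were higher and between 7.51% and 10.8% lower. In the highest decile the shares were 8.1% and 6.77%. Olfactory receptors accounted for a large part of the low group: 633 of 898 were at least 3-fold lower and 25 at least 3-fold higher, with a median fold of 0.181. Vomeronasal receptors were at least 3-fold lower in 203 of 283 cases. Most of these genes have a single exon, and among all genes with 1 exon 50.7% (931 of 1835) were at least 3-fold lower, against 9.4% of those with more exons. With the olfactory, vomeronasal and taste receptors left out, the shares were 28.5% and 8.48%. The share of ribosomal RNA reads also differed between the libraries, as given above, and its part in these counts was not tested. Entry to the comparison needed a summed value of 10 or more, and 1 read was worth 1.664 in mTEClo against 0.6009 in mTEChi. A gene seen mainly in mTEClo therefore passed on fewer reads. With a minimum of 50, lower entries fell from 3727 to 2433 and higher entries from 3444 to 3269. With mTEChi reads thinned to the depth of mTEClo, lower entries numbered 3673. The part of the minimum in the shares of the lowest decile and of the receptors was not tested. A few receptors went against their family, such as Olfr1136 with 375 in mTEChi and 26.6 in mTEClo.

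The 3 mTEChi libraries gave a measure of spread that the pair itself lacks. In CPM, 19194 genes could be placed in all of them. For 36.4% of these, mTEClo lay below all 3 mTEChi libraries, and for 28.3% above all 3. Among genes within 2-fold in the pair the shares were 29.8% and 18.1%. CPM divides by all counted reads, and the share of the ribosomal RNA precursor differed between libraries, with no value for it at 0 h. Its part in this tilt was not tested. Of the genes at least 3-fold higher in the pair, 2352 of 2450 had mTEClo below all 3, and of those at least 3-fold lower, 2252 of 2337 had it above all 3. The pair's own mTEChi library is one of the 3, so its side was fixed by the class. The mTEClo library is also the one that set the class, so a trait of that library alone would appear against all 3. Only the other mTEChi libraries carry what is new, and these counts are no independent check of mTEClo. Krt5 was at 647, 1081 and 949 CPM in the 3 mTEChi libraries and 4014 CPM in mTEClo, and Cxcl12, named after its value was seen, at 9.72, 11.4 and 1.2 CPM in the 3 mTEChi libraries and 90.2 CPM in mTEClo, where the mTEChi libraries themselves spread widely.

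**Figure D3:**
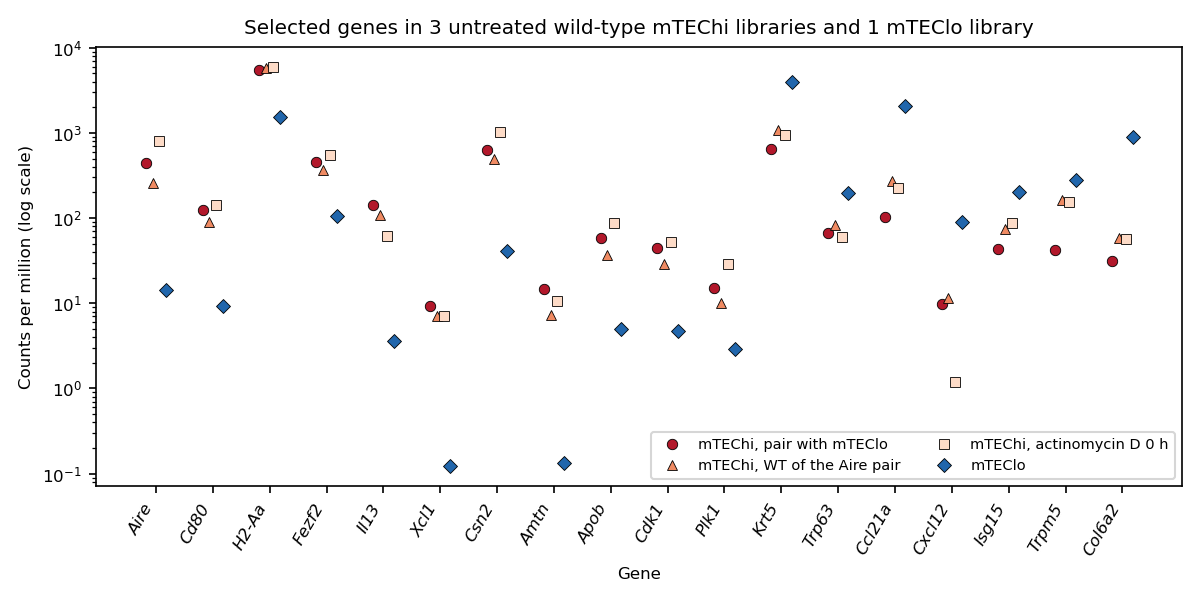
CPM (vertical axis, log scale) of 18 genes in the 3 untreated wild-type mTEChi libraries (circle, triangle, square) and in the mTEClo library (diamond), with 1 point per library and no error bars. The genes drawn were chosen by hand after their values were seen. For each of them the mTEClo point lies outside the range of the mTEChi points, below it from Aire to Plk1 and above it from Krt5 to Col6a2. Over all 19194 genes placed, mTEClo lay inside that range for 35.3%. Aire stands at 14.4 CPM in mTEClo.

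A test with that spread was made with edgeR's quasi-likelihood fit, in which the lone mTEClo library was assumed to vary like the 3 mTEChi libraries. With Benjamini-Hochberg adjustment over 24687 entries, 475 (1.92%) were called higher in mTEChi and 357 (1.45%) lower at an adjusted p under 0.05. Without adjustment, 2694 and 2253 entries had p under 0.05. Leaving out the mTEChi library of the pair ended every call (0 higher, 0 lower, with 1823 and 1650 entries under 0.05 unadjusted), and leaving out the 0 h library raised the calls to 1834 and 1211. The calls thus depend on which library is left out. The entry NM_009646 of Aire was 4.94 ± 0.81 higher on the log2 scale (SE, edgeR adjusted p = 0.0371). Cd86 was 3.70 ± 0.72 higher (edgeR adjusted p = 0.0411) and Xcl1 5.86 ± 0.78 higher (edgeR adjusted p = 0.0371). Lower in mTEChi were Krt5 with a log2 difference of -2.31 ± 0.39 (edgeR adjusted p = 0.0371) and the entry NM_011124 of Ccl21a with -3.51 ± 0.52 (edgeR adjusted p = 0.0371). Trpm5 did not pass, with -1.38 ± 0.70 (edgeR adjusted p = 0.335). By list, the calls fell on 4 of 8 milk protein genes, 5 of 14 enamel, dentin and bone genes, 1 of 27 mitosis genes and 0 of 23 tuft cell genes. They also fell on 9 of the 12 fibroblast markers that could be placed in all 3 mTEChi libraries.

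The largest folds of the pair were led by tissue-restricted genes. Where the higher of the 2 values was 100 or more, Sult1e1, the estrogen sulfotransferase, came first, with 483 in mTEChi and 1.7 in mTEClo. That mTEClo value is 1 read, and the ratio was 290.4-fold (52 to 11483). Myl2, the ventricular myosin light chain, also had 1 read in mTEClo, with 182 in mTEChi and 1.7 in mTEClo and a ratio of 109-fold (19.4 to 4322). Better counted were Adcyap1, encoding the neuropeptide PACAP, with 1474 in mTEChi and 18.3 in mTEClo, or 80.5-fold (44.9 to 162) higher, and Cd207, encoding langerin, with 1213 in mTEChi and 18.3 in mTEClo, or 66.3-fold (37 to 133) higher. Lipf, the gastric lipase, had 428 in mTEChi and 6.7 in mTEClo. The 15 largest folds also held Acbd7, Iltifb, Lcn8, Spink7, S100a7l2, Gtsf1 and Npw, each with 3 reads or fewer in mTEClo, so their ratios are loosely bounded. In all 15 the mTEClo library lay below the 3 mTEChi libraries.

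At the other end, Gas1, a hedgehog co-receptor, had 553 in mTEChi and 20859 in mTEClo, or 37.7-fold (35.3 to 40.4) lower, and Boc, another co-receptor of that pathway, 716 in mTEChi and 23107 in mTEClo, or 32.3-fold (30.4 to 34.2) lower. Adgrl4, a receptor of endothelial cells, had 66.1 in mTEChi and 2165 in mTEClo. Mgp, the matrix Gla protein, had 1870.2 in mTEChi and 48472 in mTEClo, or 25.9-fold (25 to 26.9) lower. Sult5a1, another sulfotransferase, had 299 in mTEChi and 9671 in mTEClo. Zdhhc25, F630028O10Rik, Olfr457, Spem2, Taf7l2 and Ifna14 reached the 15 largest on few reads, between 4 and 7 in mTEChi.

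The maturation classes were then set beside a second pair of libraries that shares none with the first: WT mTEChi against the library labelled Aire-KO. Over 19712 genes measured in both pairs, 4494 (22.8%) were at least 3-fold higher in WT and 420 (2.13%) at least 3-fold lower. Of the genes at least 3-fold higher in mTEChi than in mTEClo, 48.8% (1290 of 2641) also reached 3-fold or more toward WT, against 15.2% (1924 of 12662) of the genes within 2-fold. Toward the library labelled Aire-KO, 4.09% (108 of 2641) of the genes higher in mTEChi and 1.03% (131 of 12662) of those within 2-fold reached 3-fold. Both classes varied with expression level. In the third decile of the mean of mTEChi and mTEClo, 52.6% of genes were at least 3-fold higher in WT and 22.2% higher in mTEChi. In the highest decile these shares were 3.06% and 8.1%. The part of expression level in the overlap of the classes was not tested. Both pairs also differed in the ribosomal RNA precursor, which took 0.763% of counted reads in WT and 3.77% in the labelled Aire-KO. Lars2 stood at 853 CPM in WT and 4064 CPM in the labelled Aire-KO. Each was thus higher in the labelled Aire-KO, as it was in mTEClo. The part of this shared contrast in the overlap was not tested. Of the genes at least 3-fold lower, 30% (479 of 1599) were higher in WT and 7.0% (112 of 1599) lower in it. Read from the other side, 28.7% of the genes higher in WT were at least 3-fold higher in mTEChi and 10.7% at least 3-fold lower, and 42.8% were within 2-fold of mTEClo. Of the 420 genes lower in WT, 25.7% were at least 3-fold higher in mTEChi and 26.7% at least 3-fold lower, against 13.4% and 8.11% of all 19712, so both directions within the Aire pair held more genes of the maturation classes than the whole did. The library names of this pair rest on the study's own code, since its columns carry none. Apob, for example, had a WT over labelled Aire-KO ratio of 11.1 (10 to 12.3) and Alb one of 176 (92.5 to 386). Amtn and Wap were at 0 reads in the labelled Aire-KO library.

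**Figure D4:**
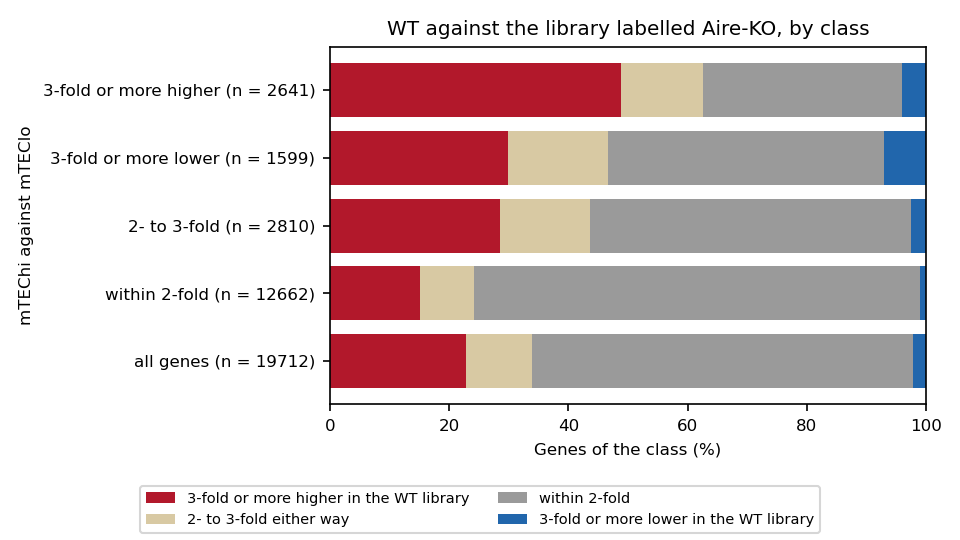
Share of genes (horizontal axis, percent) that were higher, lower or little changed in WT mTEChi against the library labelled Aire-KO, for each class of mTEChi against mTEClo (rows, with the number of genes). The share at least 3-fold higher in WT is 48.8% in the class higher in mTEChi, 30% in the class lower and 15.2% in the class within 2-fold.

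Many genes higher in mTEChi were level within the Aire pair. Ubd, encoding the ubiquitin-like modifier FAT10, had 264509 in mTEChi and 38045 in mTEClo and a WT over labelled Aire-KO ratio of 0.925 (0.92 to 0.93). Ptgs2, a prostaglandin synthase, had 112249 in mTEChi and 10579.9 in mTEClo and a ratio of 0.684 (0.677 to 0.691). Csn2 was of this kind as well, with a ratio of 0.58 (0.574 to 0.587), unlike Csn1s2a of the same gene cluster, with 46.4 (30.7 to 73.5). Some genes higher in mTEChi were lower in WT, among them Fgf21, an endocrine growth factor, with 45590.4 in mTEChi and 4273 in mTEClo and a ratio of 0.316 (0.311 to 0.322). In the opposite corner were genes lower in mTEChi than in mTEClo but higher in WT: Avil with a ratio of 4.11 (4.0 to 4.23), Irf7 with 3.51 (3.4 to 3.63) and Gpx3, a secreted peroxidase, with 26603 in mTEChi and 139925 in mTEClo and a ratio of 6.73 (6.54 to 6.92). In the tuft cell list, 13 of 23 members reached 3-fold or more toward WT, while 16 were at least 3-fold lower in mTEChi than in mTEClo. Krt10 and Reg3g, an antibacterial lectin, were within 2-fold of mTEClo and higher in WT, with ratios of 26 (24.9 to 27) and 9.4 (9.28 to 9.53).

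The annotated starts of the classes differed in sequence. A window from 250 bases before to 50 after the start was read from mm9 for 20577 genes, 95.5% of the class higher, 87.9% of the class lower and 95.4% of that within 2-fold. TATAAA on the strand of the gene, beginning 40 to 15 bases before the start, was found in 6.81% of windows in the class higher, 2.23% in the class lower and 1.5% in that within 2-fold, against 2.38% of all. By size of fold, the share was 11.5% (85 of 742) above 8-fold, 4.92% from 3- to 8-fold and 1.42% from equality to 2-fold. Among genes higher in mTEChi it was 10.8% where the gene also differed by 3-fold or more within the Aire pair, toward WT, and 3.32% where it was within 2-fold there. The median number of CG dinucleotides in the window was 6 in the class higher, 3 in the class lower and 17 in that within 2-fold. With a mean of 100 or more and no receptors, the medians were 6 in the class higher, 10 in the class lower and 19 in that within 2-fold. The class lower thus rose but stayed under the class within 2-fold. In the list of cytokines and TNF family ligands another motif was frequent: GGANTTTCC, a core of NF-kB sites, was found on either strand in 21.2% of its 33 windows (7 genes), against 1.23% of all. It was not particular to that list, since 20.8% of the 24 windows of thymic chemokines held it. By class the shares were 1.94% in the class higher and 1% in the class lower.

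**Figure D5:**
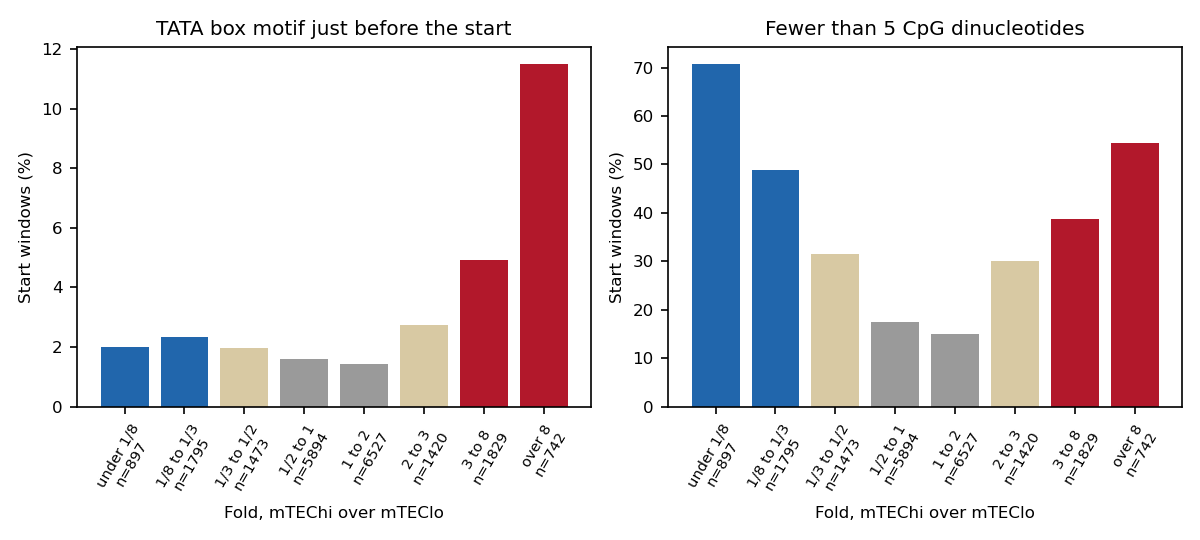
Share of start windows (vertical axis, percent, from 0) with a TATA box motif 40 to 15 bases before the start (left) and with fewer than 5 CG dinucleotides (right), by fold of mTEChi over mTEClo (horizontal axis, with the number of genes). The TATA share climbs from 1.42% between equality and 2-fold to 11.5% above 8-fold, while the share of windows poor in CG is high at both ends.

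Windows of 130 bases, laid out as for Aire, are given for 3 genes higher and 2 lower in mTEChi that hold the motif; they were chosen after the matches were seen. Il13 was described above. Pomc, the precursor of several peptide hormones, had 8901 in mTEChi and 258 in mTEClo, or 34.5-fold (29.5 to 40.7) higher, and Pgc, encoding a pepsinogen of the stomach, 8186 in mTEChi and 215 in mTEClo, or 38.1-fold (32.1 to 45.7) higher. Mgp was described above, and Ccn1, an immediate early matrix protein gene, had 13130.1 in mTEChi and 99454 in mTEClo, or 7.57-fold (7.46 to 7.69) lower. The capitals mark TATAAA, which begins 29 bases before the start in Il13, 31 in Pomc, 31 in Pgc, 30 in Mgp and 25 in Ccn1. The 2 genes lower in mTEChi show that the motif is not particular to the class higher.
Il13 (chr11:53448175-53448304, minus strand): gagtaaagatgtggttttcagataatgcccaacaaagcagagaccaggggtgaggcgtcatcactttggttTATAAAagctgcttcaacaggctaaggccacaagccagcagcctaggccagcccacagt
Pomc (chr12:3954851-3954980, plus strand): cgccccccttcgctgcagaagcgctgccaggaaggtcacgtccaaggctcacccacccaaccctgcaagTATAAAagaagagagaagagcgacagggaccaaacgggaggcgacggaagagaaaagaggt
Pgc (chr17:47863691-47863820, plus strand): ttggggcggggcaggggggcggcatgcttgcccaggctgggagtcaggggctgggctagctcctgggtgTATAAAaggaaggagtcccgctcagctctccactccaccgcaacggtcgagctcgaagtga
Mgp (chr6:136824297-136824426, minus strand): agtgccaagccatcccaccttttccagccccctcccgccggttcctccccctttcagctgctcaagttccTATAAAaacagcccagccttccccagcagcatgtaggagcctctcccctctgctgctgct
Ccn1 (chr3:145312920-145313049, minus strand): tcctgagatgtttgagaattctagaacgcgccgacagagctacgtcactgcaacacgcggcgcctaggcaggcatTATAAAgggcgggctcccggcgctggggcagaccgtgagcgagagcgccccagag

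Neighbouring genes often fell in the same class. The next gene along the chromosome was also at least 3-fold higher for 26.6% of the genes higher in mTEChi, against 12.3% for any gene, and also lower for 35.7% of the genes lower, against 14.0%. Where the neighbour did not share the stem of its symbol, the shares were 19.8% against 11.4% and 19.5% against 10.7%. The longest run of neighbours higher in mTEChi held 10 genes of the Mup cluster, and the longest run lower held 18 olfactory receptor genes. Runs of 3 or more numbered 145 and 206. Chromosome 7, which carries many such receptors, had the highest share of lower genes at 22.5%.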

How the data were processed

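RNA of 9 libraries was sequenced in the series, and 5 enter here: the mTEChi and mTEClo pair, the WT mTEChi and library labelled Aire-KO pair, and the 0 h mTEChi reference. The 4 actinomycin D-treated libraries, per the labels made with another kit, were not used. Per the labels and the study's methods, the authors filtered reads with CASAVA, mapped them to mm9 with Bowtie 1.0.0, and counted with bedtools the reads lying wholly within the exons of each RefSeq entry. For the 0 h library the authors deposited whole-number counts. For the other pairs the authors deposited a signal, the count of each entry divided by a DESeq size factor of its library, which is called a normalised count here. All values of these columns were whole multiples of 1 step per library (tolerance 0.1 of a read), so the reads were recovered and used for intervals, CPM and tests. The tables also hold columns of the authors' fold changes and p-values, which were not used. In the Aire table the columns carry no library names: A was taken as Aire-KO and B as WT, because the study's own code treats a high B over A ratio as upregulation by Aire, and the 0 h column as the one repeated in all 4 actinomycin D tables.

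Entries with a summed value of at least 10 were kept, with 1 entry per symbol for genes. Folds of at least 3 and within 2 defined the classes, and where 1 library had 0 reads the fold was taken against 3 reads. Intervals are exact conditional binomial 95% intervals computed with scipy 1.17.1 (numpy 2.4.6, pandas 2.3.3, Python 3.11.15, matplotlib 3.10.9). They cover counting error only: reads are not independent molecules, since no molecular identifiers were used. In R 4.3.3, edgeR 4.0.16 (TMM factors, quasi-likelihood test) and, as an alternative, DESeq2 1.42.0 compared the 3 WT mTEChi libraries with mTEClo over entries in all files. Nothing says that these libraries have more in common than their labels, and p-values measure only the spread between them. The scripts were tested on simulated counts.

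The 45 gene lists, the 55 families and the part of the series described were chosen with earlier results of these data known. Named are Aire and Clp1, up to 6 members per list or family with the highest mean, the members with the largest and smallest fold among those with at least 100 in the higher library, the 15 largest folds in each direction, and the 6 genes of highest mean in each class that the pairs place differently. Other genes are said to be chosen after their values were seen. Members without a measured entry (Polr2a, Ccl28, Flg, Sh2d6, Ccdc40, Muc16, Zcchc11, Cd68 and Hbb-b1) were left out of their lists.

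Start windows taken from the RefSeq table supplied matched 78.3% of genes, under the 80% needed, so that check is void. Windows 250 bases before to 50 after the GENCODE vM1 gene start were read from mm9 instead, a choice made after seeing the data. The motifs spelled out with the results were searched on both strands, as were the octamer ATGCAAAT and the AP-1 site TGANTCA; none of them holds another, except that TATAAA near the start was read on the strand of the gene only.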

Additional observations from a re-analysis of the deposited data

How the results depend on the processing

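The main counts were 3444 entries at least 3-fold higher in mTEChi and 3727 at least 3-fold lower. A limit of 2-fold gave 5472 and 5903. A minimum of 50 normalised counts gave 2433 lower entries, and requiring the whole counting interval to lie beyond 3-fold gave 2282 lower entries; for the higher entries both counts stayed within 1.5 times the main one. With the spread of 3 mTEChi libraries, edgeR called 475 higher and 357 lower, or 490 and 366 with no filter on low counts, and DESeq2 called 1855 and 979. Leaving out 1 mTEChi library at a time moved the edgeR calls between 0 and 1834 higher and between 0 and 1211 lower; 0 came without the mTEChi library of the pair. The genes both at least 3-fold higher in mTEChi and at least 3-fold higher in WT than in the labelled Aire-KO numbered 1290, and 1990 with a limit of 2-fold.

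Median folds of the 100 lists and families moved by less than 1.5-fold under library-total and TMM scaling; library totals took 3 of them, all within 0.1 of equality on the log2 scale, to the other side of it, and TMM factors took 0. With the median of the 3 mTEChi libraries in place of the pair's own, 90 moved by less than 1.5-fold. The sign turned for 8, of which 6 were within 0.1 of equality in the pair; the others were keratinocyte differentiation genes (-0.57 to 0.31) and bone morphogenetic proteins (0.71 to -0.19). In the void RefSeq windows TATAAA near the start was found in 8.28% of the class higher and 1.74% of that within 2-fold; in the mm9 windows the shares were 6.81% and 1.5%, and with protein-coding entries only 6.98% and 1.5%. TATAAA anywhere in a RefSeq window of the class lower was found in 20.1%, and in 21.9% with protein-coding entries only. The cause of these shifts was not tested. No paired analysis was possible because the groups compared have 1 library each, and the libraries added from other experiments share no numbered partner with mTEClo. The depth of mTEClo, 74161592 reads against 195444567, sets the precision of genes with few reads there.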
